A study of Mus musculus with 8 samples.

Results

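The metallothionein genes *Mt1*, *Mt2* and *Mt3* and the gene of their metal-sensing activator, *Mtf1*, were examined in the newborn brain after maternal cadmium (Cd) exposure. These 4 genes were taken from the 49585 genes of the count table of the C57BL/6J (B) genome by their Ensembl identifiers, and all 4 were among the 23113 genes that passed the filter on low counts. Whole brains came from 8 newborn females of a B × C cross (C57BL/6J mother × CAST/EiJ father), 4 from dams that drank water with 0 ppm CdCl2 and 4 from dams that drank water with 50 ppm CdCl2 before and during gestation, each pup from a different litter. All 8 pups shared the hybrid genotype and sex and were taken within the first day after birth. Poly(A) RNA was sequenced as single-end reads, and the total of the counts was 22916434 to 30708087 in a brain. As each library was made from homogenized whole brain, fewer cells of a type and less RNA per cell cannot be told apart.

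Metallothioneins are small, cysteine-rich proteins that bind zinc, copper and cadmium. MTF-1, the protein of *Mtf1*, is a zinc finger transcription factor that senses free zinc and binds metal response elements (MREs) in the promoters of *Mt1*, *Mt2* and other metal-handling genes, and cadmium exposure is a classical inducer of *Mt1* and *Mt2* in liver and kidney. In the brain, *Mt1* and *Mt2* are known mainly from astrocytes and cells of the meninges, while *Mt3* is a brain-enriched member, found in neurons and astrocytes, that responds little to metals. *Mt4*, the fourth gene of the mouse cluster, is known from stratified epithelia.

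*Mt1* (ENSMUSG00000031765) lies on the forward strand of chromosome 8 of GRCm38, from 94179082 to 94180327. *Mt2* (ENSMUSG00000031762, 94172664 to 94173568) and *Mt3* (ENSMUSG00000031760, 94152607 to 94154146) precede it on the same strand, *Mt2* starting 6.42 kb before *Mt1* and *Mt3* 20.1 kb before *Mt2*. *Mtf1* (ENSMUSG00000028890) lies on chromosome 4, from 124802104 to 124849800, also on the forward strand. The main transcripts of the 3 metallothionein genes each have 3 exons and encode 61 amino acids for *Mt1* and *Mt2* and 68 for *Mt3*, whereas that of *Mtf1* has 11 exons and encodes 675. The main transcripts of *Mt1* and *Mt2* were identical at 60.3% of aligned positions, and those of *Mt3* were identical at 53.3% to *Mt1* and 53.4% to *Mt2*. No stretch as long as the 115 bases of a trimmed read was shared on the same strand between any of the 4 genes and another annotated gene, so reads without mismatches could be told apart between these genes.

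The promoters are shown because MREs are the sequences through which MTF-1 reaches its target genes. Each is the RefSeq sequence of GRCm38.p6, 5′ to 3′ on the forward strand, from 250 bases before to 50 bases after the annotated start. Capitals mark matches to the MRE core, searched as TGCACNC and TGCGCNC on both strands. They lie at chr8:94178839-94179138 for *Mt1*, chr8:94172368-94172667 for *Mt2*, chr8:94152357-94152656 for *Mt3* and chr4:124802299-124802598 for *Mtf1*. The promoter of *Slc30a1* (chr1:191906531-191906830), which encodes the zinc exporter ZnT1 and is a textbook MTF-1 target, is given for comparison.
*Mt1*: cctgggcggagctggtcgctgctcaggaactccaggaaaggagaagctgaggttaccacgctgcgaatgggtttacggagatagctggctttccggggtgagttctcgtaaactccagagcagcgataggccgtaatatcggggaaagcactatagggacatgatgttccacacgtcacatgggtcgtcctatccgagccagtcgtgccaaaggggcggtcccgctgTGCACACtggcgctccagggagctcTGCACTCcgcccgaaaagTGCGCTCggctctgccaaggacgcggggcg
*Mt2*: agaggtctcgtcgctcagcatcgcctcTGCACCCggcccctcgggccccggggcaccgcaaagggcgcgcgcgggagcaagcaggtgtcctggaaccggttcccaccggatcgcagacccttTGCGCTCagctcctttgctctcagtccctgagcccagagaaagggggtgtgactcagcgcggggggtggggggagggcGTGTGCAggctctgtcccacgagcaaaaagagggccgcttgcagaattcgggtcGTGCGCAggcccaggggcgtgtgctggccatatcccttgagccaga
*Mt3*: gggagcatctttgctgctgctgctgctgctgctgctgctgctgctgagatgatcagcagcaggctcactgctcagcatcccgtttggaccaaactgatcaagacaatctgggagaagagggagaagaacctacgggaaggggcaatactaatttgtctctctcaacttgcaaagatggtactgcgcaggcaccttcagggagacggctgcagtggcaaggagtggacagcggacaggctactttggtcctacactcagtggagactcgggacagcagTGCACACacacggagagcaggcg
*Mtf1*: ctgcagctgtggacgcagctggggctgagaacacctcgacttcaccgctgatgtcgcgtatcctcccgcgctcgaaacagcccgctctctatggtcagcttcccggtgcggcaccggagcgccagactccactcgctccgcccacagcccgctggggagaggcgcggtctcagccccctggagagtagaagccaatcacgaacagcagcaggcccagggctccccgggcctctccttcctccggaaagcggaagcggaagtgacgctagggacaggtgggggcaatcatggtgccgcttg
*Slc30a1*: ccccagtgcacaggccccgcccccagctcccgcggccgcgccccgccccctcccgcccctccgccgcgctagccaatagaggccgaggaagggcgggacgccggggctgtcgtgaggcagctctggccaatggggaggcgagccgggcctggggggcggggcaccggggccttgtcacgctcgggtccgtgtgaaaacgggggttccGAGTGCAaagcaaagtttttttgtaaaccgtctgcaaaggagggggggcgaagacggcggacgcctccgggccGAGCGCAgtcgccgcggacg

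The MRE core was found 3 times in the *Mt1* promoter, 4 times in that of *Mt2*, 1 time in that of *Mt3* and 0 times in that of *Mtf1*, and 2 times in that of *Slc30a1*. At least 1 match was present in 25.7% of the 32851 promoters searched, at least 3 in 1.97% and at least 4 in 0.517%. The A form, TGCACNC, was present in 12.6% of promoters and the G form, TGCGCNC, in 15.4%. Distances are given from the annotated start, and the starts used in these brains were not measured. In *Mt1* the matches lay at 23 to 17 bases before the annotated start and at 3 to 9 and 21 to 27 bases after it, all on the strand of the gene. In *Mt2* they lay at 223 to 217 and 128 to 122 bases before the start on that strand, and on the other strand at 50 to 44 bases before and 5 to 11 bases after it. The single match in the *Mt3* window lay 28 to 34 bases after the annotated start. No matches overlapped each other in the 5 promoters.

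Other short motifs differed between these promoters. An antioxidant response element core, TGACNNNGC, was present 1 time each in *Mt2* and *Slc30a1*, 0 times in *Mt1*, *Mt3* and *Mtf1*, and in 12.4% of all promoters. The GC box, GGGCGG, was found 3 times in *Mt1*, 1 time in *Mtf1*, 5 times in *Slc30a1* and 0 times in *Mt2* and *Mt3*, with at least 1 in 35.7% of all promoters, and 1 of those in *Mt1* overlapped an MRE match. The TATA motif TATAAA, present in 13.6% of promoters, had 0 matches in the 5 windows, but it occurred 1 time in the annotated transcript leader (the bases before the start codon) of each metallothionein gene, beginning at base 129 of the *Mt1* transcript, base 90 of *Mt2* and base 107 of *Mt3*. Those leaders, of 229, 184 and 193 bases, held 4, 3 and 3 MRE core matches, some of which the promoter windows also cover, and the leader of *Mtf1* held 0. The TATA motifs lie past the end of the windows. The window counts of *Mt1*, *Mt2* and *Mt3* therefore leave out MRE core matches further along the leaders. Such matches describe letters in annotated windows, and binding was not measured.

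**Figure D1:**
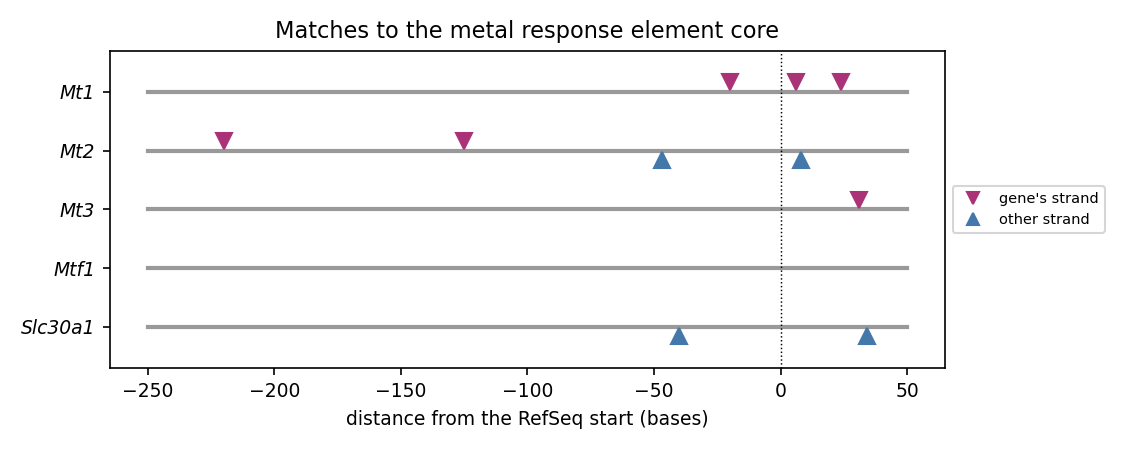
Position of matches to the MRE core in the promoters of *Mt1*, *Mt2*, *Mt3*, *Mtf1* and *Slc30a1*, as distance in bases from the RefSeq start; triangles pointing down are matches on the strand of the gene and triangles pointing up matches on the other strand. *Mt1* holds 3, *Mt2* 4, *Mt3* 1, *Mtf1* 0 and *Slc30a1* 2 matches.

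*Mt1*, *Mt2* and *Mt3* were detected in all 8 brains, with 335 to 1075 counts per brain and gene. Per kilobase of main transcript (549 bases for *Mt1*, 511 for *Mt2*, 536 for *Mt3* and 7631 for *Mtf1*), the mean level over the 8 brains was 50.0 ± 8.85 RPKM for *Mt3*, 36.6 ± 5.78 for *Mt2*, 29.9 ± 5.33 for *Mt1* and 3.90 ± 0.247 for *Mtf1* (SD, n = 8). *Mt3* exceeded *Mt2* in 7 of 8 brains and *Mt2* exceeded *Mt1* in 8 of 8, yet the ranges over brains of these neighbours overlapped (37.3 to 65.5 RPKM for *Mt3*, 28.6 to 45.3 for *Mt2* and 20.8 to 36.5 for *Mt1*). *Mtf1*, at 3.52 to 4.30 RPKM, was below *Mt1* in 8 of 8 brains, and those ranges did not overlap. The order depended on the length used. Over the union of all annotated exons, which is 1246 bases for *Mt1* and 1066 for *Mt3* because of longer alternative transcripts, *Mt2* was highest at 31.8 RPKM, followed by *Mt3* at 25.1, *Mt1* at 13.2 and *Mtf1* at 3.34. *Mt4* was listed at 0 in all 8 brains, where 3 counts, the upper limit that a count of 0 allows, would be 0.098 to 0.132 CPM (counts scaled to a library of 1000000 reads). *Selenoh* and *Cox17*, which are widely expressed genes, and the neuron gene *Tubb3* were also listed at 0. The cause of these listings was not tested.

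*Mt1* was the member with the largest difference between doses. It had 11.4, 16.1, 16.5 and 14.0 CPM in the control brains and 15.2, 20.0, 18.1 and 19.9 CPM in the 50 ppm brains. Of the 50 ppm brains, 3 of 4 lay above the highest control and 4 of 4 above the control median, but the lowest 50 ppm brain lay below 2 of the controls, so that the groups overlapped. The means were 14.5 ± 2.31 and 18.3 ± 2.27 CPM (SD, n = 4 each), a 1.26-fold difference (95% interval 1.05 to 1.52), or a log2 fold change of 0.33 ± 0.13 (SE). In edgeR's quasi-likelihood test the unadjusted p was 0.0175 and the Benjamini-Hochberg adjusted p over all genes was 0.999, and *Mt1* ranked 331 of 23113 by p. The unadjusted p was 0.0130 in DESeq2 and 0.0121 in limma-voom, and permuting the 8 doses over brains in all 70 ways gave an exact two-sided p = 0.0857 (smallest possible 0.0286). The difference therefore did not pass the test over all genes. Without 0 ppm replicate 1, the lowest brain, the log2 fold change was 0.23 (edgeR unadjusted p = 0.0724), and the unadjusted p was also above 0.05 without 50 ppm replicate 2 (0.0576) or replicate 4 (0.0571).

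*Mt2*, which is usually induced together with *Mt1*, had 15.6, 19.0, 21.5 and 14.6 CPM in the control brains and 16.5, 19.6, 19.8 and 23.2 CPM in the 50 ppm brains. Only 1 of the 50 ppm brains lay above the highest control, and the groups overlapped widely. The means were 17.7 ± 3.17 and 19.8 ± 2.73 CPM (SD, n = 4 each), with a log2 fold change of 0.16 ± 0.13 (95% interval -0.12 to 0.43; edgeR unadjusted p = 0.244, adjusted p = 0.999; exact permutation p = 0.343). Of the exon bases of *Mt2*, 432 (73.5%) overlap *Gm45774*, an antisense gene with 1 to 10 counts per brain. The strand setting of the count is not given in the sources used here, so reads of the pair cannot be told apart with certainty.

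*Mt3* had 25.3, 20.0, 35.1 and 26.5 CPM in the control brains and 27.1, 30.6, 27.9 and 21.9 CPM in the 50 ppm brains. The highest and the lowest brain were both controls, and all 50 ppm values lay between them. The means were 26.7 ± 6.26 and 26.9 ± 3.66 CPM (SD, n = 4 each), and the log2 fold change was 0.01 ± 0.14 (95% interval -0.28 to 0.30; edgeR unadjusted p = 0.945, adjusted p = 0.999; exact permutation p = 0.886). A change of up to 1.23-fold upward lies within that interval. The direction turned when single brains were left out, from -0.11 without 0 ppm replicate 2 to 0.17 on the log2 scale.

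*Mtf1* had 30.4, 32.8, 28.6 and 28.9 CPM in the control brains and 28.6, 26.8, 31.2 and 31.0 CPM in the 50 ppm brains. The groups overlapped throughout, with means of 30.2 ± 1.91 and 29.4 ± 2.07 CPM (SD, n = 4 each). The log2 fold change was -0.04 ± 0.09 (95% interval -0.22 to 0.15; edgeR unadjusted p = 0.673, adjusted p = 0.999; exact permutation p = 0.686). *1110065P20Rik*, on the opposite strand, overlaps 8.09% of the *Mtf1* exon bases.

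**Figure D2:**
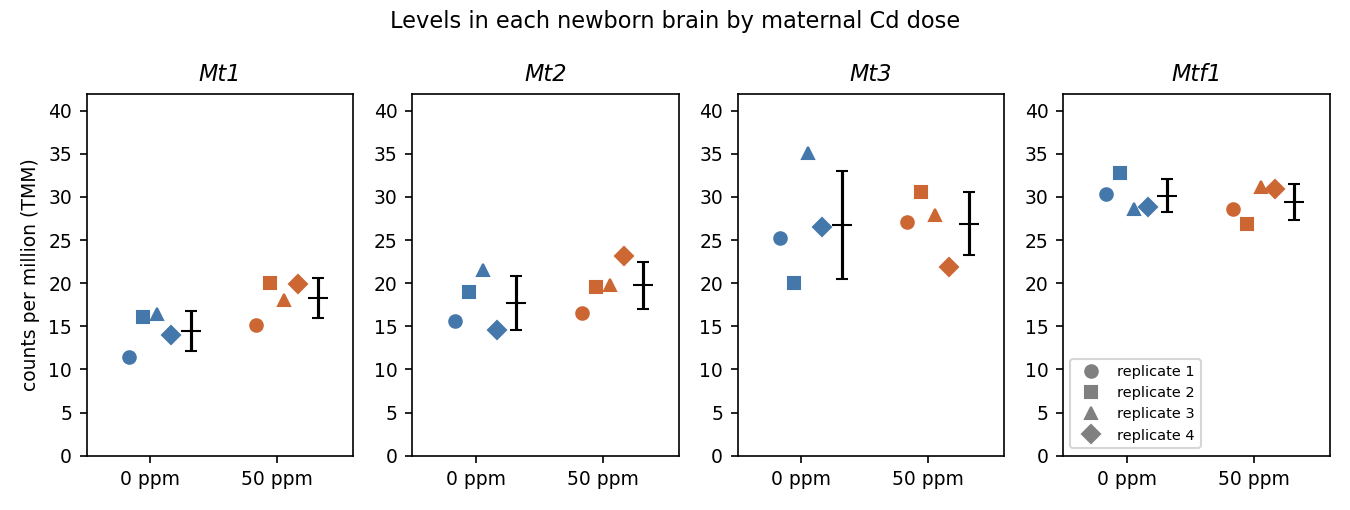
Level of *Mt1*, *Mt2*, *Mt3* and *Mtf1* in CPM (TMM-normalized) in each brain, by maternal dose; symbols are brains and black bars the mean ± SD of 4. *Mt1* lies at 11.4 to 16.5 CPM in controls and 15.2 to 20.0 CPM at 50 ppm, and the groups overlap in all 4 panels.

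Across the members, 0 of 4 were called at an adjusted p under 0.05 by edgeR, where 0.0173% of all genes tested were called, and 0 of 4 by DESeq2 or limma-voom. At an unadjusted p under 0.05, which 3.75% of all genes reached by edgeR, 1 of 4 was higher at 50 ppm by each of the 3 tools, beside 2.31% of all genes, and 0 of 4 were lower, beside 1.44%. The 50 ppm brains lay wholly above or below the controls for 0 of 4 members, beside 1.19% and 0.904% of all genes. The 3 detected metallothionein genes had a median log2 fold change of 0.16, and all genes tested a median of -0.003.

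**Figure D3:**
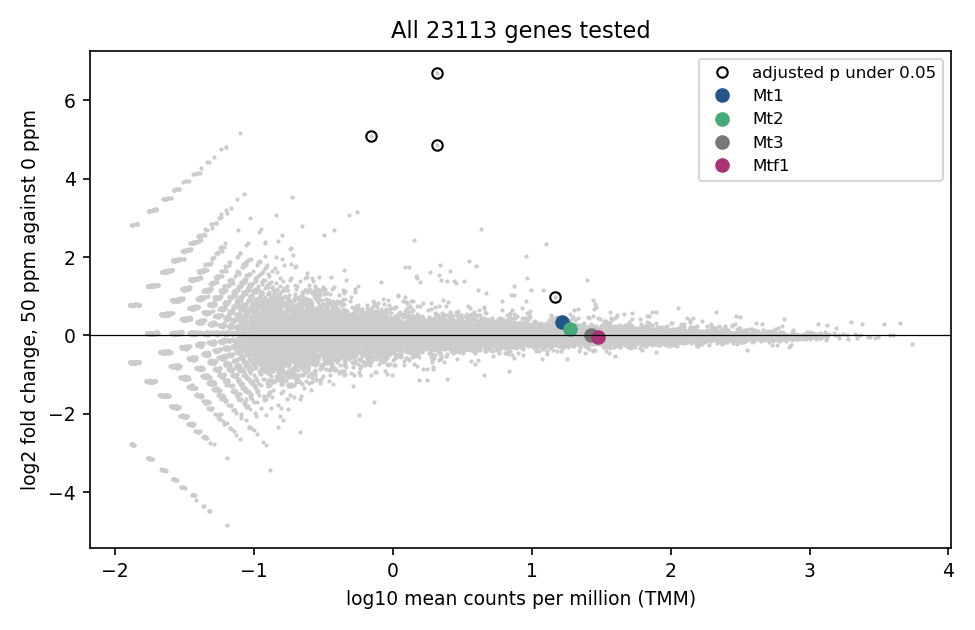
log2 fold change of 50 ppm against 0 ppm over the log10 mean CPM for each of the 23113 genes tested (grey points), with the 4 members as filled circles and the 4 genes at an adjusted p under 0.05 as open circles. *Mt1* (0.33), *Mt2* (0.16), *Mt3* (0.01) and *Mtf1* (-0.04) lie within the cloud of genes of like level.

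Because the 3 metallothioneins bind the same metals, their reads were also summed. The sum was 52.3, 55.1, 73.1 and 55.1 CPM in the control brains and 58.8, 70.2, 65.8 and 64.9 CPM in the 50 ppm brains. The highest sum was that of a control, 0 ppm replicate 3, and the other 3 controls lay below all 50 ppm brains. The means were 58.9 ± 9.54 and 64.9 ± 4.72 CPM (SD, n = 4 each). *Mt1* made up 24.8 ± 3.36% of these reads in controls and 28.1 ± 2.03% at 50 ppm, *Mt2* 30.1 ± 3.30% and 30.4 ± 3.63%, and *Mt3* 45.2 ± 5.91% and 41.5 ± 5.41%.

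The balance between the genes was compared within libraries, where depth cancels. The count ratio of *Mt1* to *Mt2* was 0.731, 0.847, 0.765 and 0.960 in the control brains and 0.919, 1.02, 0.913 and 0.859 at 50 ppm, a difference of 0.17 on the log2 scale (exact two-sided permutation p = 0.171, adjusted over the 3 ratios 0.429). The ratio of *Mt3* to *Mt1* ranged from 1.24 to 2.21 in controls and from 1.10 to 1.79 at 50 ppm, a log2 difference of -0.31 (exact permutation p = 0.286, adjusted 0.429). For *Mt3* to *Mt2* the log2 difference was -0.14 (exact permutation p = 0.514, adjusted 0.514), and it turned to 0.04 without 50 ppm replicate 4, in which *Mt2* counts exceeded those of *Mt3*. In all 3 ratios the doses overlapped.

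**Figure D4:**
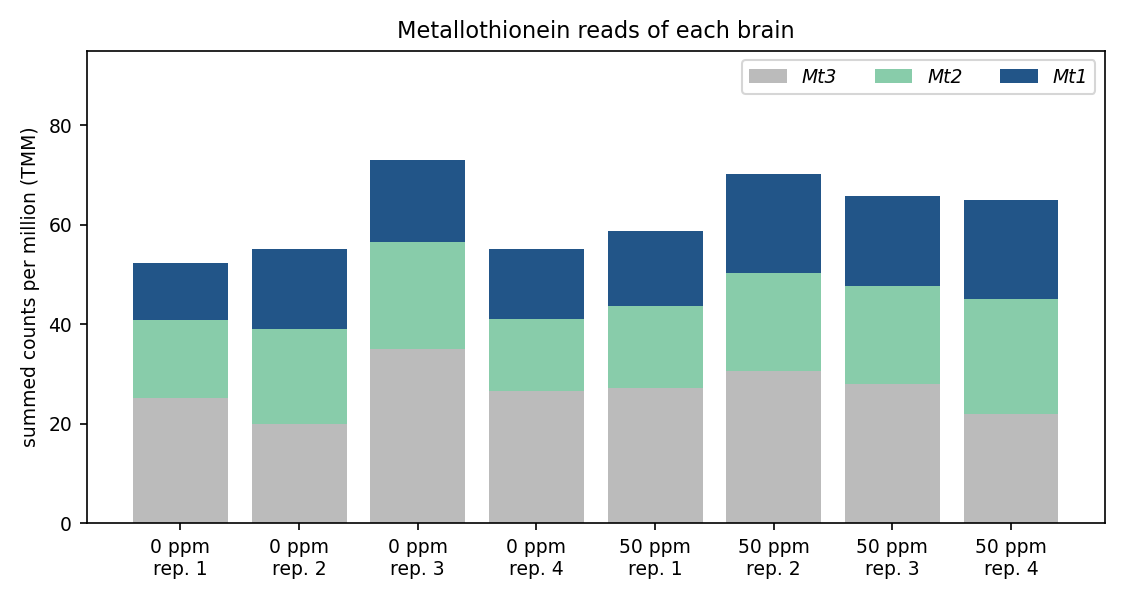
Summed CPM of *Mt3* (bottom), *Mt2* (middle) and *Mt1* (top) in each of the 8 brains, with bars starting at 0. The sums lie at 52.3 to 73.1 CPM in controls and 58.8 to 70.2 CPM at 50 ppm, with the highest bar that of 0 ppm replicate 3.

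The spread between brains of the same dose was wider for *Mt1*, *Mt2* and *Mt3* than for *Mtf1*. The coefficient of variation of *Mt1* was 15.9% at 0 ppm and 12.4% at 50 ppm, of *Mt2* 17.9% and 13.8%, and of *Mt3* 23.4% and 13.6%, where counting error alone would give 3.72% to 4.99%. *Mtf1* varied by 6.33% and 7.05%, with a counting error of 3.44% and 3.57%. The within-dose SD of log2 CPM was 0.215 for *Mt1*, 0.229 for *Mt2*, 0.276 for *Mt3* and 0.0964 for *Mtf1*. Among genes of like level, *Mt1* stood at percentile 81.0 (2523 genes of 10.9 to 24.6 CPM), *Mt2* at 86.1 (2634 genes of 12.5 to 28.1 CPM), *Mt3* at 95.5 (2888 genes of 17.9 to 40.2 CPM) and *Mtf1* at 24.9 (2948 genes of 19.9 to 44.7 CPM).

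Over the 8 brains, *Mt1* and *Mt2* went up and down together (Pearson r = 0.802, permutation p = 0.0175, adjusted over 6 pairs 0.0828; Spearman rho = 0.810, permutation p = 0.0218, adjusted 0.131). Without the 2 brains farthest from the *Mt1* median r was 0.897, and for deviations from the dose means it was 0.795. *Mt3* and *Mtf1* moved in opposite directions (r = -0.762, permutation p = 0.0276, adjusted 0.0828; rho = -0.738, permutation p = 0.0458, adjusted 0.137; r = -0.685 without the 2 brains farthest from the *Mt3* median). Neither relation passed the correction for 6 pairs. For *Mt1* and *Mt3*, r was 0.078 (permutation p = 0.854, adjusted 0.913) and rho 0.333 (permutation p = 0.428, adjusted 0.856), with r = -0.218 without the 2 farthest brains. For *Mt2* and *Mt3*, r was 0.046 (permutation p = 0.913, adjusted 0.913) and rho 0.238 (permutation p = 0.582, adjusted 0.873), with r = -0.008 without the 2 farthest brains. *Mtf1* had an r of -0.122 with *Mt1* (permutation p = 0.783, adjusted 0.913; rho = -0.143, permutation p = 0.752, adjusted 0.902; r = 0.497 without the 2 farthest brains) and of 0.152 with *Mt2* (permutation p = 0.720, adjusted 0.913; rho = 0.048, permutation p = 0.935, adjusted 0.935; r = 0.168 without the 2 farthest brains).

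The genes whose log2 CPM was most like each member over the 8 brains, among the 10330 genes of at least 10 CPM, are given as a description. For *Mt1* they were *Naaa* (r = 0.977), *Serpine2* (0.962) and *Clptm1* (0.956). For *Mt2* they were *Hepacam*, which encodes an adhesion molecule of astrocytes (r = 0.960), *Psat1*, an enzyme of serine synthesis (0.959), and *Commd10* (0.958). *Mt3* was most like *Bex4* (r = 0.981), *Hdac6*, a cytoplasmic deacetylase (0.977), and *Acaa1a*, a thiolase of peroxisomes (0.972). *Mtf1* was most like *Smc3* (r = 0.976), *Larp4* (0.971) and *Smc2* (0.969), of which *Smc3* and *Smc2* encode subunits of cohesin and condensin.

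The genes around the cluster did not pass the test either. Within 100 kb, *Ogfod1*, *Bbs2* and *Nup93*, the protein-coding neighbours of the metallothionein genes, had log2 fold changes of 0.01, -0.03 and -0.07 (edgeR unadjusted p = 0.932, 0.805 and 0.365). The antisense gene *Gm45774* was at 0.16 and 0.21 CPM (log2 fold change 0.35 ± 0.57, unadjusted p = 0.545). *Gm45873*, *Gm39228*, *Rpl10-ps5* and *Gm45804* were listed at 0.

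MTF-1 also acts on genes outside the cluster. Of the 9 listed MTF-1 targets other than metallothioneins, 8 were tested and 0 were called by edgeR. At an unadjusted p under 0.05 there were 0 by edgeR, beside 3.75% of all genes, 0 by DESeq2 and 1, *Csrp1*, by limma-voom. With that share, a count of 0 in so short a list does not set it apart from all genes. The median log2 fold change was -0.002 beside -0.003 over all genes. *Slc30a1*, the zinc exporter whose promoter is shown above, was at 50.1 ± 5.60 CPM in controls and 49.3 ± 6.03 CPM at 50 ppm (log2 fold change -0.02, edgeR unadjusted p = 0.815). *Slc39a10*, a zinc importer that MTF-1 is known to repress, was at 171 ± 9.84 and 172 ± 15.1 CPM (log2 fold change 0.01, edgeR unadjusted p = 0.939). *Selenow*, which encodes a small selenoprotein, had a log2 fold change of -0.08 and *Csrp1* of 0.14 (edgeR unadjusted p = 0.271 and 0.138).

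Factors that act on metallothionein promoters were measured in the same libraries. All 9 listed regulators, a list that includes *Mtf1* itself, were tested, and 0 were called by edgeR. By edgeR, 0 had an unadjusted p under 0.05, beside 3.75% of all genes, and 0 did by DESeq2 or limma-voom. The median log2 fold change of the list with *Mtf1* was -0.06. The most abundant were *Hif1a*, the hypoxia factor (172 ± 10.8 and 167 ± 12.1 CPM, log2 fold change -0.04), and *Ep300*, a coactivator of MTF-1 (113 ± 6.01 and 106 ± 13.0 CPM, -0.08). *Nr3c1*, the glucocorticoid receptor, through which glucocorticoids induce *Mt1* and *Mt2*, had a log2 fold change of 0.07 (edgeR unadjusted p = 0.416). Of 9 genes that glucocorticoids are known to raise, 0 were called. At an unadjusted p under 0.05 there were 0 by edgeR, beside 3.75% of all genes, and 1, *Dusp1*, by DESeq2 and by limma-voom. Their median log2 fold change was -0.06. *Dusp1* was lower at 50 ppm (edgeR log2 fold change -0.20). The most abundant of the 9 were *Fkbp5* (log2 fold change -0.06) and *Tsc22d3* (-0.08).

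Among 25 genes listed as zinc transporters, of the *Slc30* and *Slc39* families with *Slc11a2* added, 0 were called. At an unadjusted p under 0.05, 3 were higher at 50 ppm by each of the 3 tools, beside 2.31% of all genes by edgeR. *Slc39a12*, a zinc importer of the brain, was at 8.06 ± 2.00 CPM in controls and 10.9 ± 0.927 CPM at 50 ppm (log2 fold change 0.43, edgeR unadjusted p = 0.0128, adjusted 0.999). *Slc30a3*, which loads zinc into synaptic vesicles, was at 4.84 ± 1.01 and 6.53 ± 1.28 CPM (0.43, edgeR unadjusted p = 0.0241, adjusted 0.999). *Slc30a10*, known as a manganese exporter, was at 31.3 ± 3.60 and 36.3 ± 1.74 CPM (0.21, edgeR unadjusted p = 0.0313, adjusted 0.999). The median of the list was 0.01, and in each of these 3 genes the doses overlapped. Without 0 ppm replicates 1 and 2 the log2 fold changes were 0.20 for *Slc39a12*, 0.21 for *Slc30a3* and 0.11 for *Slc30a10* (edgeR unadjusted p = 0.213, 0.282 and 0.328). The unadjusted p of *Slc30a3* also rose above 0.05 without 0 ppm replicate 1 (0.0787), 0 ppm replicate 2 (0.0628) or 50 ppm replicate 1 (0.113). That of *Slc30a10* did so without 0 ppm replicate 1 (0.0815), 2 (0.0879) or 4 (0.0718), or 50 ppm replicate 3 (0.0799) or 4 (0.0503).

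Of 11 copper handling genes, 10 were tested, 0 were called and 1 had an unadjusted p under 0.05 by each tool, beside 3.75% of all genes by edgeR. This was *Cp*, the copper-carrying ferroxidase ceruloplasmin, at 16.3 ± 1.11 CPM in controls and 21.4 ± 2.10 CPM at 50 ppm (log2 fold change 0.39, edgeR unadjusted p = 0.00112, adjusted 0.570). For *Cp* all 50 ppm brains lay above all controls, as they did for 1.19% of all genes. The 12 genes known to rise in acute cadmium and oxidative stress, such as heat shock genes and *Hmox1* (heme oxygenase), held 0 called genes. They held 0 at an unadjusted p under 0.05 by edgeR, DESeq2 or limma-voom, beside 3.75% of all genes by edgeR. The median log2 fold change was 0.04. *Hmox1* was at 7.30 ± 1.14 and 6.81 ± 1.17 CPM (-0.10, edgeR unadjusted p = 0.514), and the most abundant genes of that list, *Hsph1* and *Txnrd1*, had log2 fold changes of -0.03 and -0.14.

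**Figure D5:**
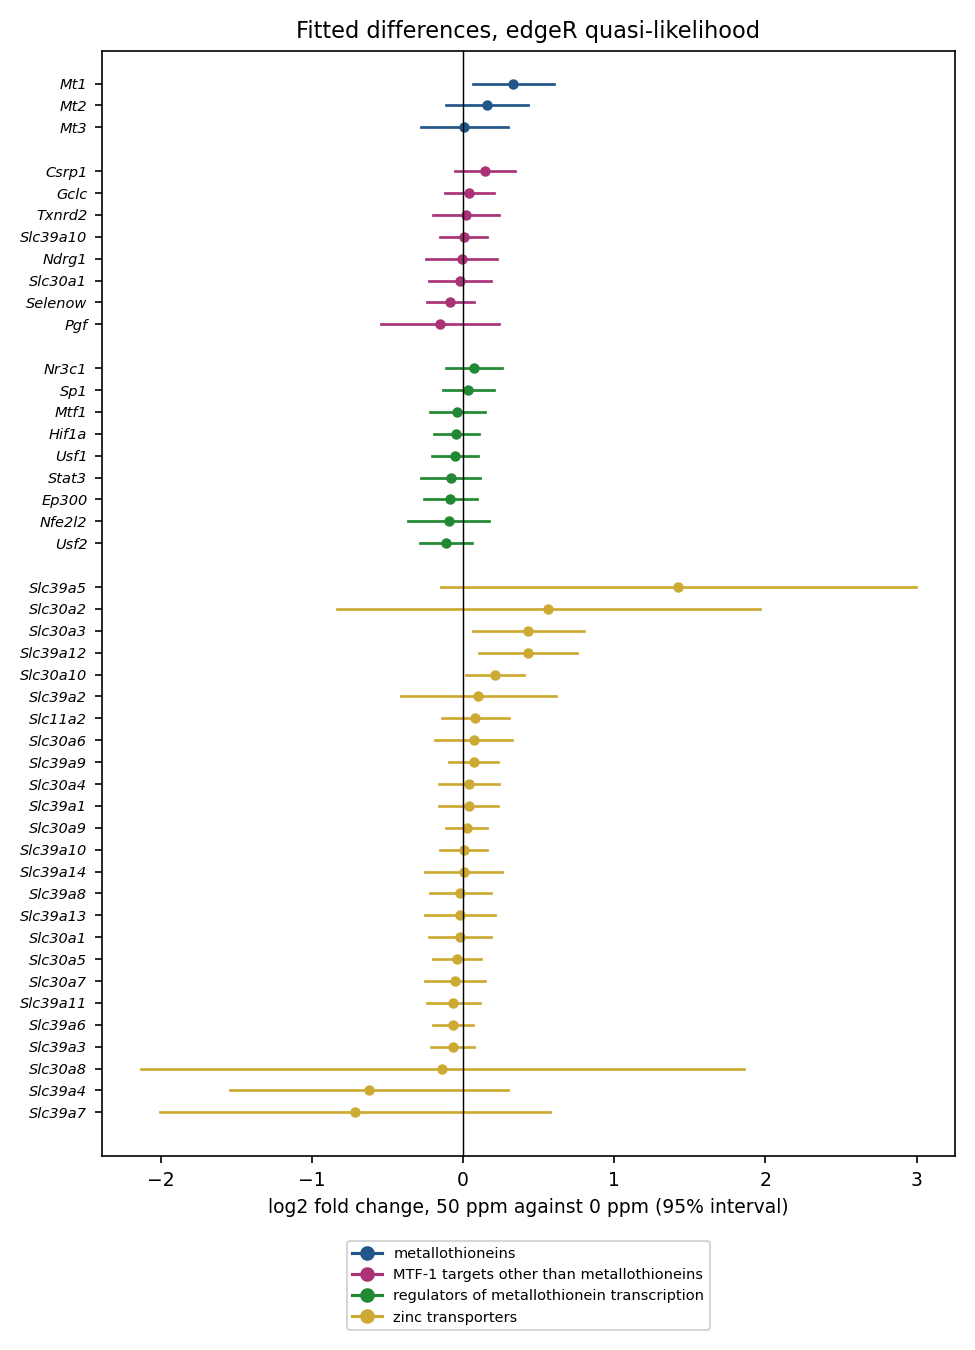
log2 fold change of 50 ppm against 0 ppm (points) with its 95% interval (lines) from edgeR for the metallothionein genes, the MTF-1 targets, the regulators with *Mtf1*, and the zinc transporters. The intervals of *Mt1* (0.07 to 0.60), *Slc30a3*, *Slc39a12* and *Slc30a10* lie above 0, and those of *Mt2*, *Mt3* and *Mtf1* include it.

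Promoter matches were set against the differences over all genes, as counts. Of the 15057 tested genes with a promoter in the RefSeq table, 2.29% were higher and 1.53% lower at 50 ppm at an unadjusted p under 0.05. The 512 genes with 3 or more MRE core matches, to which *Mt1* and *Mt2* belong, had shares of 2.34% and 1.37% and a median log2 fold change of -0.01.

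Markers of cell types that are known to express metallothioneins were measured in the same brains, and their sums overlapped between the doses. Summed over 12 astrocyte genes, of which none was listed at 0, the level was 1805, 1707, 1961 and 1693 CPM in the control brains and 2090, 2122, 1948 and 2312 CPM at 50 ppm. The highest control, 0 ppm replicate 3, was also the highest control of *Mt1*, *Mt2* and *Mt3*, and it lay above the lowest 50 ppm brain. At 50 ppm, replicates 4 (2312 CPM) and 2 (2122 CPM) had the highest sums and also the highest *Mt1*, 19.9 and 20.0 CPM. Not all brains kept that order. The next highest control, 0 ppm replicate 1 (1805 CPM), had the lowest *Mt1* of all brains, 11.4 CPM. At 50 ppm the lowest *Mt1*, 15.2 CPM, was that of replicate 1 (2090 CPM) and not of the brain with the lowest sum. By edgeR, 0 of the 12 were called. At an unadjusted p under 0.05, 6 (*Aqp4*, *Gfap*, *Gja1*, *Aldoc*, *S100b* and *Apoe*) were higher by edgeR (5 of 12 by DESeq2 and 7 of 12 by limma-voom), beside 2.31% of all genes by edgeR. The median log2 fold change of the list was 0.25. Of 10 meningeal genes, 3 (*Slc6a13*, *Aldh1a2* and *Igf2*) were higher at an unadjusted p under 0.05 by each tool, beside 2.31% of all genes by edgeR. Of the 10, 0 were called by edgeR and 1, *Aldh1a2*, by DESeq2, and the median log2 fold change was 0.12. These 10 genes summed to 837 to 1047 CPM in controls and 964 to 1057 CPM at 50 ppm. All 50 ppm brains lay above all controls for 3 of the 10 (*Slc6a13*, *Aldh1a2* and *Igf2*). The same held for 1 of the 12 astrocyte genes, *Gja1*, beside 1.19% of all genes. The part of either cell type in the *Mt1* values was not tested.

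Genes of the brainstem and spinal cord were measured as well. Their sum was 1.36, 4.05, 44.6 and 53.7 CPM in the control brains and 157, 70.7, 43.6 and 64.1 CPM at 50 ppm, with *Hoxa3* listed at 0, and the doses overlapped. Of 8 tested, 0 were called by edgeR or DESeq2. At an unadjusted p under 0.05, 7 (*Hoxa2*, *Hoxb2*, *Hoxb3*, *Hoxb4*, *Hoxb5*, *Slc6a5* and *Glra1*) were higher by edgeR and by limma-voom, and 1, *Glra1*, by DESeq2. That compares with 2.31% of all genes by edgeR. The median log2 fold change of the 8 was 1.49. Without the 2 controls that were low in these genes, 0 ppm replicates 1 and 2, the log2 fold change of *Mt1* was 0.26 (edgeR unadjusted p = 0.0788). It was 0.12 for *Mt2*, -0.20 for *Mt3* and 0.03 for *Mtf1*, with an adjusted p of 0.998 for each gene. With single controls left out, the value of *Mt1* was 0.23 without replicate 1 (edgeR unadjusted p = 0.0724) but 0.39 without replicate 2 (0.0119).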

How the data were processed

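RNA was extracted from homogenized whole brains of newborn B × C females (4 per dose), selected for poly(A), made into size-selected directional libraries and sequenced as 125-base single-end reads. The authors assessed the reads with FastQC, trimmed the initial 10 bases, aligned with STAR to GRCm38 (Ensembl) and separately to the CAST/EiJ genome, and assigned reads to genes with htseq-count. The authors deposited these raw read counts without normalization. The strand setting, the minimum mapping quality and the versions of these tools are not given in the sources used here. Neither the loss of CAST/EiJ-allele reads in the alignment to GRCm38 nor the effect of size selection on transcripts as short as those of the metallothioneins was tested.

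Groups came from the sample labels, and replicate numbers follow accession order. The 4 members, the gene lists and the rules for naming genes were chosen with earlier results of these data known. The filter of the study's methods was applied, which removes genes at 0 in over 2/3 of libraries. Libraries were normalized by TMM, and 50 ppm was compared with 0 ppm by the quasi-likelihood test of edgeR 4.0.16 (R 4.3.3) with dose as the only term. Benjamini-Hochberg adjustment covered all 23113 genes, and an adjusted p under 0.05 was called. The SE was the absolute log2 fold change divided by the square root of F. CPM used TMM library sizes, RPKM also the length of the main GENCODE transcript, and log2 CPM a prior count of 2. Single values and within-library log2 count ratios (prior count 2) were tested by exact two-sided permutation of the 8 libraries, and correlations by permutation of pairings (scipy 1.17.1). Intervals for counts of 0 cover counting error only. With 4 against 4 brains, each of a different litter, the p-values rest on the spread between brains. Spread between litters, pups and libraries cannot be told apart. The edgeR p-values also draw on the spread of other genes.

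Members were named in full, together with *Mt4*, genes within 100 kb, the 3 genes most like each member by Pearson r, and list genes with an unadjusted p under 0.05 or, where there were none, the 2 most abundant of the list. *Slc30a1*, *Csrp1*, *Hmox1*, *Nr3c1*, *Dusp1* and *Tubb3* were named after their values were seen. The lists of oligodendrocyte, neuron, choroid plexus, endothelium and blood genes are described in the closing section, and some listed genes are not reported here. Promoters came from RefSeq (GRCm38.p6), with all 5 genes shown matched, and gene coordinates and transcripts from GENCODE vM21. The alternatives were DESeq2 1.42.0, its size factors, limma-voom (limma 3.58.1), a robust edgeR fit, no filter, a minimum of 10 counts in 4 libraries, and each library left out in turn. Throughout, limma-voom was run with quality weights, which weight single libraries. Leaving out 2 controls together was chosen after seeing the data. The code was tested on simulated data.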

Additional observations from a re-analysis of the deposited data

Results flagged for a closer look

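In 5 of 50 groups of 4 brains examined, 1 brain stood apart from the other 3 by Dixon's criterion, where chance gives about 1 in 20. Among the metallothionein values, 0 ppm replicate 3 had a summed *Mt1*, *Mt2* and *Mt3* level of 73.1 CPM, against 52.3 to 55.1 CPM in the other controls. *Mt3* made up 36.3% of the metallothionein reads of 0 ppm replicate 2, against 48.0% to 48.3% in the other controls. No single member stood apart in CPM by that criterion. The other 3 were sums over gene lists. Glucocorticoid target genes summed to 361.5 CPM in 50 ppm replicate 4, neuron genes to 4980 CPM in 0 ppm replicate 2, and choroid plexus and ependyma genes to 1248 CPM in 0 ppm replicate 2.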

How the results depend on the processing

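No member was called under any of the 15 alternatives. The log2 fold change of *Mt1* stayed positive in all 15, from 0.23 to 0.42 when 1 brain was left out (unadjusted p 0.00475 to 0.0724), with an adjusted p of 0.671 to 1.00 over the 15. That of *Mt2* also stayed positive, from 0.07 to 0.27. *Mt3* ranged from -0.11 to 0.17 when 1 brain was left out, and was below 0 without 0 ppm replicate 1 (-0.017) or replicate 2 (-0.11) and without 50 ppm replicate 2 (-0.058) or replicate 3 (-0.0024). *Mtf1* ranged from -0.063 to 0.0049 when 1 brain was left out, above 0 without 0 ppm replicate 2 (0.0049) or 50 ppm replicate 2 (0.0046). With 0 ppm replicates 1 and 2 both left out, *Mt3* was at -0.20 and *Mtf1* at 0.028. The log2 difference in the ratio of *Mt3* to *Mt2* ranged from -0.31 to 0.037 when 1 brain was left out. When 1 brain was left out, *Slc30a1* ranged from -0.080 to 0.057, *Hsph1* from -0.10 to 0.060 and *Slc39a10* from -0.040 to 0.060. *Slc39a10* was also below 0 in limma-voom (-0.0077) and without both controls (-0.0089). Without both controls *Hif1a* was at 0.0055 and *Fkbp5* at 0.0027. The number of genes called was 4. It was 18 by DESeq2, 52 with no filter, 2 with the stricter minimum of 10 counts, 1 by limma-voom, 2 for the CAST/EiJ alignment, 7 without both controls and 2 to 20 when 1 brain was left out (20 without 0 ppm replicate 3, 8 without 50 ppm replicate 3). Their causes were not tested. The members were not examined in the CAST/EiJ alignment, because no table at hand pairs its identifiers with them. No paired analysis was possible because the labels give no replicate numbers that link brains of different doses. With 4 brains per dose, the 95% intervals of *Mt2*, *Mt3* and *Mtf1* include differences of up to 1.35-fold, 1.23-fold and 1.11-fold upward.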

Other observations

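Other cell type lists were measured in the same brains. Of 9 oligodendrocyte lineage genes, 3 were higher at 50 ppm at an unadjusted p under 0.05 by edgeR, DESeq2 and limma-voom, beside 2.31% of all genes by edgeR. Of the 9, 0 were called by edgeR but 3 by DESeq2. These were *Mag* (log2 fold change 1.15), *Cnp* (0.52) and *Mbp* (0.49), and the median of the 9 was 0.09. In the lists of neuron (10 tested, median log2 fold change 0.01), choroid plexus and ependyma (8 tested, -0.20), endothelium (7 tested, 0.08) and blood genes (8 tested, -0.11), 0 genes were called. In these lists 0 had an unadjusted p under 0.05 by edgeR, DESeq2 or limma-voom, beside 3.75% of all genes by edgeR. The most abundant neuron genes were *Map2* (log2 fold change 0.01) and *Stmn2* (0.01), those of the choroid plexus and ependyma *Ttr* (-0.24) and *Foxj1* (0.05), those of endothelium *Slco1c1* (-0.07) and *Cldn5* (0.08), and those of blood *Hbb-bs* (-0.14) and *Hba-a1* (-0.17). Blood genes summed to 128 to 312 CPM in controls and 101 to 404 CPM at 50 ppm.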
